A study of Mus musculus with 2 samples.

Results

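The miR-30 family of the mouse was followed through microRNA sequencing of the newborn midbrain. The 6 hairpin genes followed here are Mir30a, Mir30b, Mir30c-1, Mir30c-2, Mir30d and Mir30e. They were taken by symbol from the 1973 microRNA genes counted in the series. All 6 were present in both count tables. The series holds 2 libraries of 1 group, each made from total RNA of the midbrain of a single B6NCrl pup at 0 days of age, pup 3 and pup 1, with inserts of under 30 bases. No genotype, treatment, age or second tissue was compared, sex was not collected, and the labels name different pups under a single donor identifier. The questions asked here are how much of the counted microRNA belongs to this family, how its level divides among its loci, and how far the pups differ.

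A microRNA hairpin is cut by the nucleases Drosha and Dicer into a short duplex, and 1 strand of it, the 5p or the 3p arm, is loaded into an Argonaute protein. Pairing between the seed of the loaded arm (bases 2 to 8) and a messenger RNA leads to repression of that messenger, so hairpins with 1 seed can act on overlapping sets of targets. The miR-30 family is known for restraining the epithelial-mesenchymal transition through the transcription factor Snai1 and for its role in kidney podocytes. In neurons, messages repressed by its members include that of the neurotrophin Bdnf.

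Sequences are from RefSeq (GRCm38.p6), which had an entry for 4 of the 6 hairpins here. Those of Mir30b and Mir30d are not printed. The 5p arms are shown because their seed, in capitals, is what defines the family, and because the letters after it decide whether a read can be placed at 1 locus.
miR-30e-5p: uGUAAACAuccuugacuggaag
miR-30a-5p: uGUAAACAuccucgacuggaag
miR-30c-5p (Mir30c-1 and Mir30c-2): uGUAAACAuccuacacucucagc
miR-384-5p: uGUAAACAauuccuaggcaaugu

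Every 5p arm of the 4 hairpins had the seed GUAAACA, and in the whole table of 1005 hairpins the only further arm with it was miR-384-5p. Counting positions from 1 at the 5′ end, miR-30a-5p and miR-30e-5p differed by 1 substitution, C13U. The arms of miR-30c and miR-30a shared their first 12 bases, and those of miR-384 and miR-30a their first 8. The 5p arm of Mir30c-1 was identical to that of Mir30c-2 over all 23 bases.

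The 3p arms fell into 2 seeds, again in capitals, and they are shown because they are where the miR-30c copies can be told apart.
miR-30e-3p: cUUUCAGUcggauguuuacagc
miR-30a-3p: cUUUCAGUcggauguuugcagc
miR-30c-1-3p: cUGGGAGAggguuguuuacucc
miR-30c-2-3p: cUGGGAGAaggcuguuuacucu

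Between miR-30a-3p and miR-30e-3p the difference was the single substitution G18A. Between miR-30c-1-3p and miR-30c-2-3p there were 3 substitutions, G9A, U12C and C22U. No other arm in the table had the seed UUUCAGU, and UGGGAGA was found in 1 other, miR-6958-5p, whose hairpin Mir6958 had 25 counts in pup 3 and 19 in pup 1. The 4 hairpins are given in full, with both mature arms in capitals, to show how far identity between the copies extends.
Mir30e: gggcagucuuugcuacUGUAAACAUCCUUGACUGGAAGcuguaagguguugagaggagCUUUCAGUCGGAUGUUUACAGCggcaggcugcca
Mir30a: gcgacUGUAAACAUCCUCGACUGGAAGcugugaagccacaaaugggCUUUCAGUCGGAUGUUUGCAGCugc
Mir30c-1: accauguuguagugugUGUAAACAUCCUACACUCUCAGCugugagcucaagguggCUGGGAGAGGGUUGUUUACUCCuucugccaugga
Mir30c-2: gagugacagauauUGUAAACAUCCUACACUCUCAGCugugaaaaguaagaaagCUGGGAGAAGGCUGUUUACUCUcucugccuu

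Mir30c-1 and Mir30c-2 shared an unbroken run of 28 bases, which takes in the whole 5p arm. The longest run that Mir30a and Mir30e shared was 18 bases, shorter than either arm. The Mir30e hairpin had a predicted folding energy of -51.8 kcal/mol over 92 bases, against -37.2 kcal/mol over 71 bases for Mir30a, -34.3 over 89 for Mir30c-1 and -29.4 over 84 for Mir30c-2. The median over the 1005 hairpins of the table was -32 kcal/mol at 79 bases. GC content ran from 42.9% in Mir30c-2 through 49.4% in Mir30c-1 and 51.1% in Mir30e to 52.1% in Mir30a, around a median of 51.7% in the table.

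The 6 genes lie as 3 pairs, each pair on 1 strand. On GRCm38 (mm10), Mir30e (ENSMUSG00000065409.1) spans chr4:120772606-120772697 and Mir30c-1 (ENSMUSG00000065490.1) chr4:120769534-120769622, both on the minus strand. Both sit in introns of Nfyc, which encodes a subunit of the CCAAT-binding transcription factor NF-Y. Mir30d (ENSMUSG00000065437.1) spans chr15:68341208-68341289 and Mir30b (ENSMUSG00000065476.2) chr15:68337415-68337510, also on the minus strand. All 82 bases of Mir30d lie in an exon of the noncoding gene Gm20732, and 9 of them also in an exon of Gm37296, while Mir30b overlaps an exon of the noncoding gene Gm26621 by 16 bases. Mir30a (ENSMUSG00000065405.2) spans chr1:23272269-23272339 on the plus strand with no host gene found on that strand, and Mir30c-2 (ENSMUSG00000065567.1) spans chr1:23291701-23291784, inside an exon of the noncoding gene Gm27028.

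In each pair the hairpin that comes first in the direction of transcription was the one with the higher count. For the downstream Mir30c-1 and Mir30c-2, reads within the run of bases they share map to several places and are counted in no gene. Their counts are therefore incomplete. How often other neighbouring pairs have this order was not examined. The pairs were 2983 bases apart for Mir30e and Mir30c-1, 3697 for Mir30d and Mir30b, and 19361 for Mir30a and Mir30c-2.

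**Figure D1:**
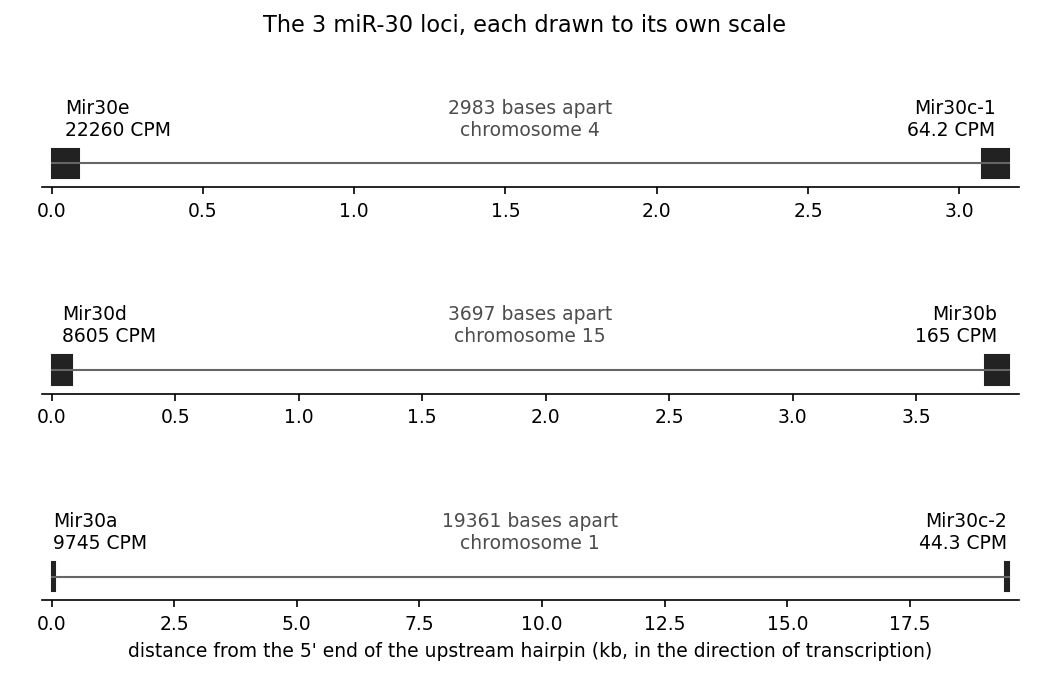
Each line is 1 locus, drawn to its own scale as distance in kb from the 5′ end of the upstream hairpin; black boxes are hairpins, with their mean level over 2 pups in CPM, which are counts per 1000000 counts on genes. The upstream hairpin, at 8605 CPM or more, exceeded its downstream partner, at 165 CPM or less, at all 3 loci. The values of the downstream Mir30c-1 and Mir30c-2 leave out reads within the run of bases they share.

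The libraries held 3195277 own-strand counts on microRNA genes in pup 3 and 2337113 in pup 1. These were 43.3% and 42.8% of the reads, and a further 39.8% in pup 3 and 38.7% in pup 1 mapped to several places and are counted in no gene. A hairpin was taken as detected when both libraries had 10 or more counts of it. For the tissue label, 6 of 9 neuronal marker hairpins were detected, and the 9 summed to 46660 CPM in pup 3, against 41504 CPM in pup 1. Striated muscle markers summed to 19.7 CPM in both pups, with Mir1a-1 and Mir133a-1 at 0 counts. Some neuronal hairpins were near 0 as well, among them Mir124a-3 with 7 counts in pup 3 and 5 in pup 1, and Mir9-2 with 4 in pup 3 and 2 in pup 1. Since reads that map to several places enter no gene, low counts of hairpins numbered as copies can be incomplete. This holds for Mir1a-1 and Mir133a-1 as for Mir124a-3 and Mir9-2, so these low counts are not read for or against the label. The part of such reads in them was not tested. The labelled midbrain itself has no marker among these lists. CPM are own-strand counts multiplied by 1000000 and divided by the sum over all genes of that library, and intervals are exact 95% binomial ones that cover counting error only.

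The family took 4.26% of the own-strand counts in pup 3 (interval 4.24 to 4.28%) and 3.92% in pup 1 (3.89 to 3.94%), a mean of 4.09% ± 0.240 (SD, n = 2). With reads that map to several places added to the total, the mean share was 2.14%. All 6 members were detected. The counts sat almost wholly in 3 of them: Mir30e, Mir30a and Mir30d held 99.4% of the family's counts in pup 3 and 99.3% in pup 1. Reads that lie wholly in the run of 28 bases shared by Mir30c-1 and Mir30c-2 map to several places and are not in these counts. Mir30b, Mir30c-1 and Mir30c-2 together held 840 of 136061 counts in pup 3 and 662 of 91579 in pup 1.

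Mir30e, from the Nfyc locus, had 74526 counts or 23324 CPM in pup 3 and 49538 counts or 21196 CPM in pup 1. It ranked 8 of 1973 genes in pup 3 and 11 in pup 1, and made up 54.4% ± 0.481 of the family (SD, n = 2). Mir30a, whose human counterpart lends its stem to many short hairpin RNA vectors, had 32693 counts or 10232 CPM in pup 3 and 21640 counts or 9259 CPM in pup 1. This was 23.8% ± 0.282 of the family. Mir30d had 28002 counts or 8764 CPM in pup 3 and 19739 counts or 8446 CPM in pup 1, which made up 21.1% ± 0.688 of the family. In both pups these 3 hairpins were among the 27 most abundant genes of the tables.

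Mir30b, the neighbour of Mir30d, had 509 counts or 159 CPM in pup 3 and 397 counts or 170 CPM in pup 1. Across the 359 detected genes its mean of 165 CPM lay below the median of 225 CPM, with 200 genes above it. Mir30c-1 had 208 counts or 65.1 CPM in pup 3 and 148 counts or 63.3 CPM in pup 1. Mir30c-2 was the lowest, at 123 counts or 38.5 CPM in pup 3 and 117 counts or 50.1 CPM in pup 1. The 3 lower members lay far above what a count of 0 allows, up to 3 counts (0.939 CPM in pup 3, against 1.28 CPM in pup 1).

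**Figure D2:**
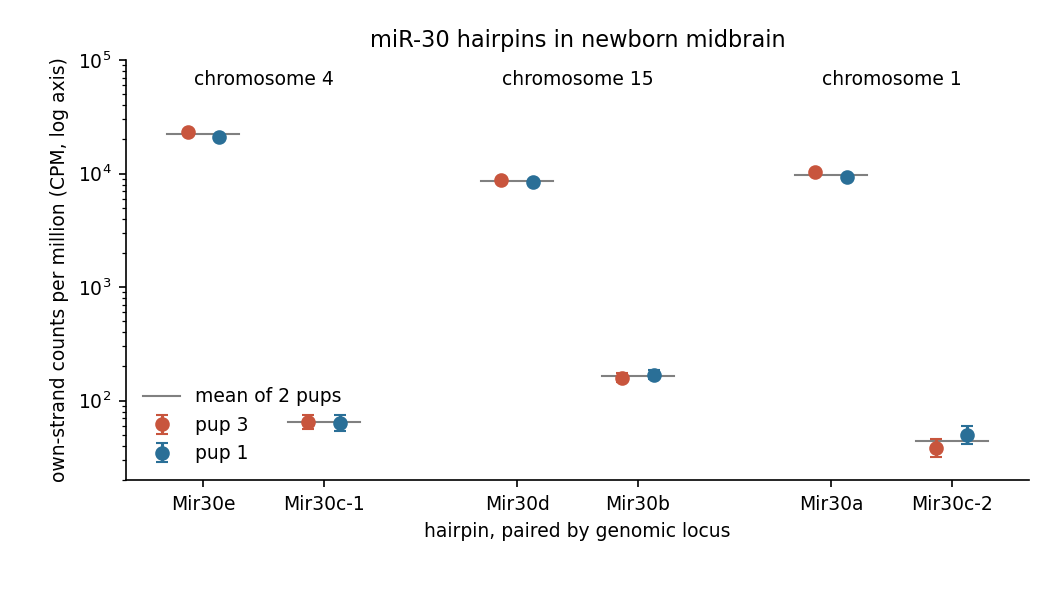
Points are CPM (log axis) of each hairpin in pup 3 and pup 1, with exact 95% counting intervals, and grey lines are means of the 2 pups. Mir30e, Mir30d and Mir30a lie between 8446 and 23324 CPM, and Mir30c-1, Mir30b and Mir30c-2 between 38.5 and 170 CPM.

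The order from high to low was Mir30e, Mir30a, Mir30d, Mir30b, Mir30c-1 and Mir30c-2 in both pups. No range over the pups overlapped with that of its neighbour, although with 2 pups a range is a weak measure of spread. The closest neighbours were Mir30a and Mir30d, with means 1.13-fold apart, and the lowest Mir30a value (9259 CPM) stood just over the highest Mir30d value (8764 CPM). Mir30c-1 and Mir30c-2 were 1.45-fold apart, with 63.3 CPM as the lowest value of Mir30c-1 and 50.1 CPM as the highest of Mir30c-2. The gap between Mir30d and Mir30b was 52.3-fold. Dividing each level by the length of its hairpin left the order the same, at 242 CPM per base for Mir30e and 0.527 CPM per base for Mir30c-2. Inserts this short do not tile a hairpin, so levels were otherwise not divided by length.

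Within a library the ratio of 2 neighbours does not depend on the library total. Ratios over Mir30c-1 or Mir30c-2 leave out reads that lie wholly in their shared run of bases, so they compare counts and not levels. Mir30e exceeded Mir30c-1 by 358-fold in pup 3 (counting interval 313 to 413) and by 335-fold in pup 1 (285 to 396). Their mean log2 ratio was 8.43 ± 0.07 (SD, n = 2). Mir30d exceeded Mir30b by 55.0-fold in pup 3 (50.4 to 60.2) and by 49.7-fold in pup 1 (45.0 to 55.1), a mean log2 ratio of 5.71 ± 0.10. Mir30a exceeded Mir30c-2 by 266-fold in pup 3 (223 to 320) and by 185-fold in pup 1 (154 to 224), a mean log2 ratio of 7.79 ± 0.37.

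For Mir30e with Mir30c-1, the ratio in pup 3 was 1.07 times that in pup 1 (exact 95% interval 0.861 to 1.33), and for Mir30d with Mir30b 1.11 times (0.967 to 1.27). For Mir30a with Mir30c-2 it was 1.44 times (1.11 to 1.87), which left the range that counting error allows in these 2 libraries. Of 109 other neighbouring hairpin pairs (1 strand, at most 25 kb apart, both detected), 12 moved between the pups by at least as much as this pair. In level, those 109 pairs had a median absolute log2 ratio of 2.37. Of them 20 were at least as far apart as Mir30d and Mir30b, 8 as Mir30a and Mir30c-2 and 5 as Mir30e and Mir30c-1. Of the 109 pairs, 43 lie on chromosome 12, so they are not independent of each other.

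The counts of Mir30c-1 and Mir30c-2 need the way of counting beside them. Since a read that maps to several places enters no gene, a read of the shared 23-base arm miR-30c-5p can be counted at neither locus. The same holds for any read that lies wholly in the shared run of 28 bases. The 331 counts of the 2 copies in pup 3 and 265 in pup 1 leave such reads out, so the level of miR-30c is uncertain. The deposited values are per hairpin, so 5p and 3p arms were not told apart for any member. Of the 916 counted genes with an entry in the sequence table, 87 had an arm identical at another hairpin, and 44 of these were detected, with a median of 341 CPM and quartiles of 37.7 and 854 CPM. Of the 829 without such an arm 284 were detected, with a median of 227 CPM and quartiles of 38.8 and 1615 CPM. The part of this in the low counts of Mir30c-1 and Mir30c-2 was not tested.

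Mir384, on the X chromosome (chrX:105344282-105344369, minus strand), was the 1 further hairpin with the miR-30 seed among those of the sequence table, which covers 916 of the 1973 counted genes. Its miR-384-5p arm has been studied in rat hippocampal long-term potentiation. It had 2736 counts or 856 CPM in pup 3 and 1916 counts or 820 CPM in pup 1, between Mir30d and Mir30b and 110th in rank by mean level. Its log2 ratio between the pups was 0.01, with an adjusted p of 0.209 by Fisher's exact test with Benjamini-Hochberg adjustment. Its mean was 838 ± 25.8 CPM, against 22260 ± 1504 CPM for Mir30e (SD, n = 2 each).

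No member had any opposite-strand count in either pup. That includes Mir30e, although the annotation places a hairpin named Mir30f across it on the other strand, which has no row in the tables.

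Pup 3 and pup 1 were set against each other by the ratio after TMM scaling and by Fisher's exact test (two-sided), which set each gene against the other counts in its library. This compares 2 libraries and has no replicate check. None of the 6 members, all tested, was called different, with an adjusted p under 0.05 and at least a 2-fold ratio, where 5 of the 286 genes tested (1.75%) were. At any fold, 3 of the 6 passed, against 57.3% of all genes tested. All 3 were higher in pup 3, where 33.9% of the tested genes were higher and 23.4% lower. For Mir30d, 1 of the 3, this rests on unscaled totals, since its TMM-scaled ratio was 1.00-fold (interval 0.985 to 1.02).

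Mir30e had a log2 ratio of 0.09 (1.06-fold, counting interval 1.05 to 1.08, adjusted p = 8.83e-62 by Fisher's exact test with Benjamini-Hochberg adjustment). Mir30a had a log2 ratio of 0.09 (1.07-fold, 1.05 to 1.09, adjusted p = 1.13e-29 by the same exact test). These ratios are TMM-scaled, while the exact test uses unscaled totals. With plain CPM the log2 ratios were 0.138 for Mir30e and 0.144 for Mir30a. For Mir30d the exact test, which uses unscaled totals, gave an adjusted p of 0.000161, while the TMM-scaled ratio was 1.00-fold with an interval of 0.985 to 1.02. These small p-values come with large counts. The TMM-scaled ratios of Mir30e and Mir30a were below the median absolute log2 ratio of 0.16 over the 286 tested genes. The biological coefficient of variation between the libraries was 0.171.

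The lower members did not pass the test. Mir30b had a log2 ratio of -0.14 (0.906-fold, 0.793 to 1.04, Fisher's exact adjusted p = 0.433). Mir30c-1 had one of -0.01 (0.993-fold, 0.801 to 1.24, Fisher's exact adjusted p = 0.870), whose sign turned to 0.04 with plain CPM. Mir30c-2 had one of -0.43 (0.743-fold, 0.572 to 0.966, Fisher's exact adjusted p = 0.0726), the largest of the family, and 40 of the 286 tested genes were at least as far from 0. The interval of Mir30c-2 leaves 1 while its adjusted p misses the threshold, since the interval uses TMM scaling and no adjustment.

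The median log2 ratio was -0.00328 over the 6 members and 0.02 over the 286 genes. Some marker lists moved between the pups alongside these values. The sums of others moved less, among them oligodendrocyte hairpins (1373 CPM in pup 3, 1467 CPM in pup 1) and leukocyte hairpins (382 CPM in pup 3, 427 CPM in pup 1). Within both sums the hairpins went opposite ways in CPM. Of the oligodendrocyte ones, Mir219a-2 was lower in pup 3 (582 against 718) and Mir338 higher (791 against 748). Of the leukocyte ones, Mir150 was lower in pup 3 (213 against 262) and Mir223 slightly higher (169 against 164). After TMM scaling the log2 ratio of Mir223 was -0.01. The listed leukocyte hairpin Mir142 was not among the counted genes. The 5 epithelial hairpins summed to 594 CPM in pup 3, against 94.99 CPM in pup 1. Of these, 3 of 5 were detected and none was at 0. The 2 red cell hairpins, both detected, went opposite ways: Mir451a had 31.0 CPM in pup 3, against 86.4 CPM in pup 1, and Mir144 29.1 CPM in pup 3, against 20.1 CPM in pup 1. The endothelial Mir126a had 30095 CPM in pup 3, against 36188 CPM in pup 1. Their part in the miR-30 values was not tested. In these tissue libraries, fewer cells of a type and less RNA per cell cannot be told apart.

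**Figure D3:**
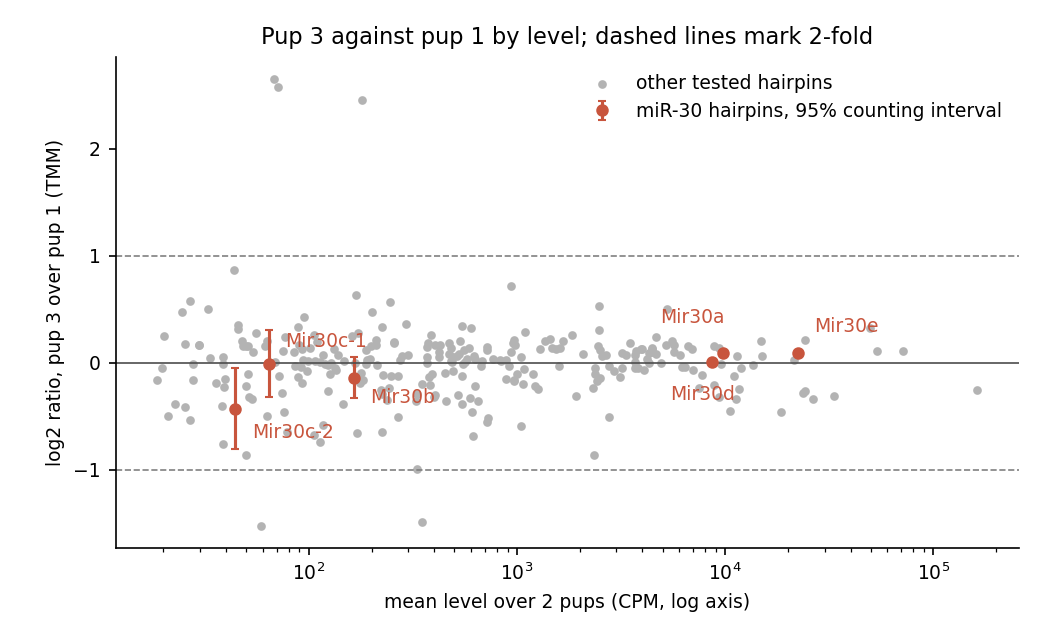
The log2 ratio of pup 3 over pup 1 after TMM scaling is plotted against mean level (CPM, log axis) for the 286 tested hairpins; miR-30 members carry 95% counting intervals and dashed lines mark 2-fold. All 6 members lie inside the dashed lines, from -0.43 for Mir30c-2 to 0.09 for Mir30a.

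Hairpins nearest to each member by Euclidean distance of log2(CPM + 1) over the 2 libraries were read off as a description of level. Mir30e lay closest to Mir130a (22022 CPM in pup 3, 20891 CPM in pup 1) and the neuronal Mir137 (26512 CPM in pup 3, 22082 CPM in pup 1). Mir30a lay closest to Mirlet7d, of the let-7 family, and Mir153, and Mir30d to Mir17 and Mir125a. Mir30b was nearest to the leukocyte hairpin Mir223 (169 CPM in pup 3, 164 CPM in pup 1) and Mir146, Mir30c-1 to Mir216b and Mir679, and Mir30c-2 to Mir199b and Mir493. The distances ran from 0.0837 for Mir30a with Mirlet7d to 0.279 for Mir30c-2 with Mir493. With 2 libraries such likeness is mainly of level.

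The miR-26, miR-181 and miR-29 families, which are likewise spread over several loci, were set beside miR-30. Against the 4.09% ± 0.240 of counts held by miR-30, miR-181 held 2.71% ± 0.118, miR-26 1.49% ± 0.185 and miR-29 0.109% ± 0.0163 (SD, n = 2 pups each). Each of these families has hairpins with an arm identical at another hairpin, and reads of exactly such an arm enter no gene. The shares, and the spreads below, therefore leave out an unknown part of each family. Every hairpin of the 4 families was detected, and each family spread widely. The highest miR-30 hairpin was 503-fold above the lowest, against 1992-fold for miR-181 and 1069-fold for miR-26, and 76.2-fold for miR-29.

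In each of the 4 families, hairpins with an arm identical at another hairpin stood below those with both arms unique in the sequence table. Across all detected hairpins with an entry the medians went the other way, at 341 CPM with an identical arm and 227 CPM without. The upper quartiles were 854 CPM with and 1615 CPM without. In miR-30 those with an identical arm were Mir30c-1 and Mir30c-2, at 44.3 to 64.2 CPM, and the unique ones Mir30a and Mir30e, at 9745 to 22260 CPM. In miR-26, whose hairpins lie in the Ctdsp phosphatase genes, Mir26a-2 and Mir26a-1 had 33.6 and 13.9 CPM while Mir26b had 14890 CPM. In miR-29, Mir29b-1 and Mir29b-2 had 10.3 and 7.88 CPM while Mir29a and Mir29c had 600.3 and 470 CPM. In miR-181 the split was less even. Its identical-arm hairpins were Mir181a-1 at 4092 CPM, Mir181b-2 at 826 CPM, Mir181a-2 at 350.4 CPM and Mir181b-1 at 7.51 CPM, while Mir181d had 6904 CPM and Mir181c, which has no entry there, 14955 CPM. The families were picked with earlier values known, so this is a description and was not tested. Mir30b, at 165 CPM, shows a low level in a hairpin for which no such comparison was made.

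**Figure D4:**
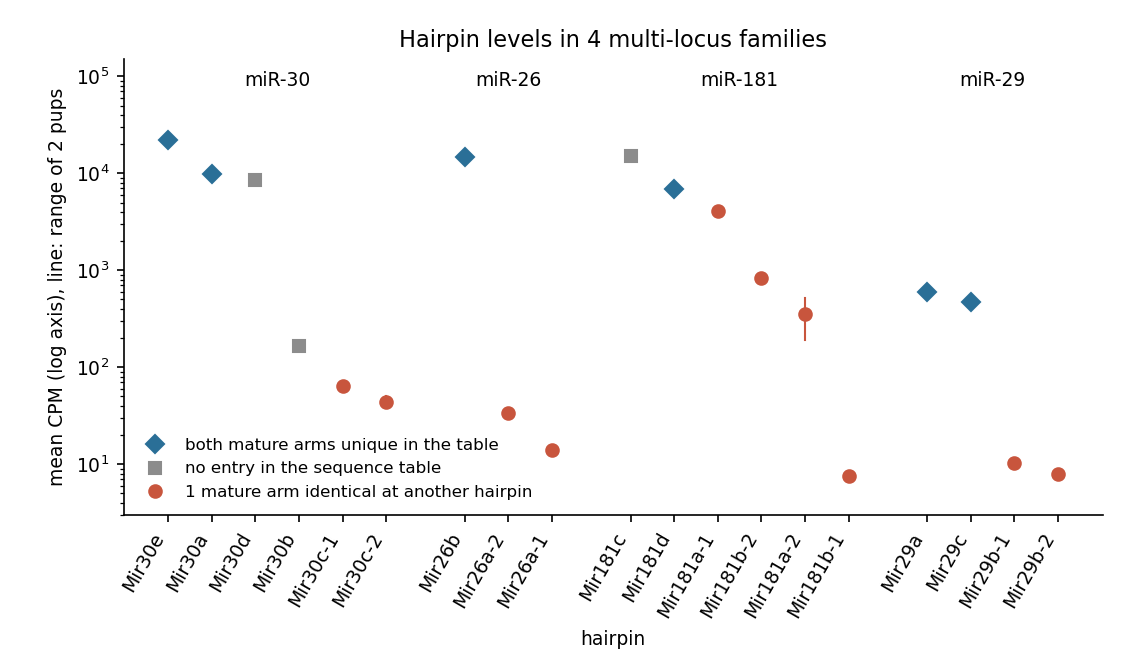
Mean CPM (log axis) of each hairpin in 4 families, with a line for the range of the 2 pups; symbols show whether 1 mature arm is identical at another hairpin of the sequence table. The 10 hairpins with an identical arm lie between 7.51 and 4092 CPM, and the 6 with both arms unique between 470 and 22260 CPM.

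Between the pups, the miR-30 total had a log2 ratio of 0.07, against 0.04 for miR-181, 0.20 for miR-26 and 0.26 for miR-29. The number of members called different was 0 of 6 tested for miR-30, 1 of 5 for miR-181 (Mir181a-2, with a log2 ratio of -1.49), 0 of 2 for miR-26 and 0 of 2 for miR-29, beside 1.75% of all genes tested. At that share a count of 0 or 1 in so few hairpins says little about a family. Whether the families differ in this was not tested.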

How the data were processed

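MicroRNA libraries of 2 newborn mouse midbrains were analysed. The authors deposited raw counts per gene, on either strand, the own strand and the opposite strand, made from alignments to mm10 with GENCODE M4 per the deposited descriptions. Neither aligner nor counter is stated (not given in the sources used here). Rows naming no gene were left out (56.7% of reads in pup 3, 57.2% in pup 1). Counts were used as deposited, on the own strand. Symbols and coordinates came from GENCODE M21 on GRCm38, which matched 1894 of the 1973 genes, and sequences from RefSeq GRCm38.p6, with an entry for 916 of them.

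Levels are CPM. Ratios of pup 3 over pup 1 used TMM totals from edgeR 4.0.16 (R 4.3.3) with a prior count of 0.5. Fisher's exact test (scipy 1.17.1) was adjusted over the 286 genes whose counts averaged 50 or more. Calculations were tested on simulated data with counting error only and a known scale. That checks the code and not the error of the exact test in these libraries. Folding energies are from RNAfold 2.7.2. A chi-square of 33249 (285 degrees of freedom) over these genes shows that the tables are not 1 library deposited under both names. With 2 pups, SD values rest on 1 degree of freedom. Reads had no molecular identifiers that were used here.

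Named genes are the 6 miR-30 hairpins, seed sharers, 3 like families, the 2 hairpins nearest in level to each member, and marker lists. The members and lists were chosen with earlier results of these data known. Neighbouring pairs and the grouping by identical arms were added after values were seen, as were Mir30f and the genes overlapping the hairpins. Alternatives were other strands, totals, scalings (among them DESeq2 1.42.0 size factors), prior counts, filters and fold thresholds.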

Additional observations from a re-analysis of the deposited data

How the results depend on the processing

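The family share of 4.09% was 3.92 to 4.26% with either pup alone, 4.88% in a total without the most abundant gene, and 2.14% when reads that map to several places were added to the total. The number of hairpins called different was 5, and 10 with a mean count of at least 10, 10 with no filter, and 19 at a 1.5-fold threshold. It was 5 with DESeq2 size factors or plain CPM, which change the ratio but not the p-value, and 5 with either-strand counts. The 3 neighbour log2 ratios were 8.42, 5.70 and 7.77 with a prior count of 2, within 1 SD of 8.43, 5.71 and 7.79. Either-strand counts could not move them, since no member has an opposite-strand count, and with 2 pups leaving 1 out is no check on them. The order by level was the same per base of hairpin, an alternative chosen after seeing the data. Of 36 alternatives for the members' ratios between the pups, 35 kept direction, and the exception was Mir30c-1, with a log2 ratio of -0.01 that was 0.0384 with plain CPM. The call stayed the same in all, but this is little check, since the largest log2 ratio was -0.43, well short of 2-fold. Scalings and prior counts also leave the p-value unchanged, because the exact test uses unscaled totals. No paired analysis was possible because the series has 1 group. Depth limits the lower members most: Mir30c-2 had 123 counts in pup 3 and 117 in pup 1.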
